A study of Mus musculus with 5 samples.

Results

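The genes described here are 9 complement components, receptors and regulators: C1qa, C1qb, C1qc, C3, Cfb, Cfp, C3ar1, C5ar1 and Cd55. They were taken by symbol from the deposited table of normalized counts, which lists 27526 genes, and each of the 9 was found there once. Complement is a cascade of plasma and cell-made proteins that marks particles for uptake, attracts leukocytes and can lyse membranes. C1q, assembled from 3 kinds of chain (the products of C1qa, C1qb and C1qc), starts the classical route. Factor B and properdin (Cfb and Cfp) drive and stabilise the alternative route, and all routes meet at C3. Fragments of C3 and C5 act on leukocytes through the receptors C3AR1 and C5AR1, and CD55 (decay-accelerating factor) takes the convertases apart on the surface of host cells. Macrophages are known as the main source of C1q, myeloid cells make properdin, and liver is the classical source of plasma C3.

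RNA came from mouse leukaemia cells labelled as Kit-positive stem cells in a model driven by AML1-ETO9a, a short form of the RUNX1 and RUNX1T1 fusion of human acute myeloid leukaemia. There were 3 libraries labelled Plcg1 -/- (conditional deletion; deleted 2, 4 and 6) and 2 libraries labelled Plcg1 +/+ (wild-type 1 and 3), and every one carried the AML1-ETO9a label. Plcg1 encodes phospholipase C-γ1, an enzyme that makes the second messengers diacylglycerol and inositol trisphosphate. The promoter that drove the recombinase, the strain, age and sex of the mice, and whether each library is from a mouse of its own were not given in the sources used here. P-values therefore measure only how these 5 samples spread, which can be technical.

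Gene counts ran from 52560713 to 57133771 in deleted libraries, with 37306507 and 51682298 in wild-type libraries. Plcg1 itself did not separate the labels, at 53.0, 26.9 and 37.1 CPM (counts relative to the TMM-scaled library size) in deleted 2, 4 and 6, against 22.1 and 34.0 CPM in wild-type 1 and 3. Counts summed over a gene include exons outside a deleted part, so this checks nothing, and group names below are those of the labels. Kit, the surface marker named in the cell label, stood at 672, 304 and 3.08 CPM in deleted 2, 4 and 6, against 26.8 and 32.1 CPM in wild-type 1 and 3. Runx1t1, the fusion partner, had 6035, 3921 and 598 counts in deleted 2, 4 and 6, against 5 and 13 in wild-type 1 and 3, although all carry the AML1-ETO9a label. Whether reads of the introduced fusion would be counted there was not tested. Deleted 6 stood apart: the 14 promyelocyte and neutrophil markers summed to 1410 CPM there, of which Mmp8 made up 1278, while the other 4 ran from 15473 to 21257 CPM. The 15 macrophage markers summed to 4995 CPM in it, against 1374 to 2978 CPM elsewhere. Results are therefore given with and without deleted 6. By the file names, deleted 2, deleted 4 and wild-type 3 were sequenced in lane 4, deleted 6 in lane 5 and wild-type 1 in lane 3, so lane 4 alone holds both labels.

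Cd55 is shown first as sequence because it had the largest fold change of the 9 genes, and C1qb and C1qc because no other pair of the 9 genes had more alike patterns over the libraries. The lines give the 250 bases before the RefSeq transcription start on GRCm38.p6, read on the minus strand on which all 3 genes lie, at chr1:130462745-130462994 for Cd55, chr4:136886201-136886450 for C1qb and chr4:136892915-136893164 for C1qc. By GENCODE, C1qc starts farther upstream, at 136893065, so part of its window lies inside the annotated gene. Capitals mark motif matches.
Cd55: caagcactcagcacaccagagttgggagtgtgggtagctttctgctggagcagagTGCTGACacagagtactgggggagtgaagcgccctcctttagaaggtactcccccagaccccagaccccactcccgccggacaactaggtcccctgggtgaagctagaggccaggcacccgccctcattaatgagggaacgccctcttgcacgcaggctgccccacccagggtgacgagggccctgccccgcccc
C1qb: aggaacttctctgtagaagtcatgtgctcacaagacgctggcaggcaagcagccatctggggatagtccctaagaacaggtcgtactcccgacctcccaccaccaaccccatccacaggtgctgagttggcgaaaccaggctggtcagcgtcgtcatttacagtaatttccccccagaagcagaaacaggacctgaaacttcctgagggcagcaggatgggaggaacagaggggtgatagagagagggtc
C1qc: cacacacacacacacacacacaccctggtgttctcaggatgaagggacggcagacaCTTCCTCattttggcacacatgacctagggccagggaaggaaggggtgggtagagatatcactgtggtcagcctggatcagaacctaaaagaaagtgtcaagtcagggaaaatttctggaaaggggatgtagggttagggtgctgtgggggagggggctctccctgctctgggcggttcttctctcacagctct

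Motifs were searched on both strands of these windows, and no matches overlapped. The C1qc window held a reverse-strand match to GAGGAAG, a PU.1 type core found in 10.6% of all 32851 windows of this length. The Cd55 window held TGCTGAC, a MAF type core found in 3.81%. None of the 3 printed windows held the IRF type pattern (GAAA, any 2 bases, GAAA, in 2.98% of windows), CACGTG (E box, in 6.02%) or TATAAA (in 12.4%). RefSeq windows matched 7 of the 9 genes, all but C1qa and Cfb. GC made up 64.0% of the Cd55 window, 55.2% of that of C1qb and 54.0% of that of C1qc.

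With all 5 libraries none of the 9 complement genes passed the test. Of 16120 genes, edgeR's quasi-likelihood test with Benjamini-Hochberg adjustment called 0% higher and 0% lower under the deleted label at an adjusted p under 0.05, with a smallest adjusted p of 0.103, and the smallest among the 9 was 0.277, for Cfp. By unadjusted p under 0.05, 0 of 9 stood higher and 1 lower, while the whole table gave 9.44% and 5.42%. DESeq2 called 1 of the 9 higher (4.59% of the 18281 genes to which it gave an adjusted p) and 0 lower (2.17%). With limma-voom, libraries weighted by quality, 1 was higher (7.63%) and 1 lower (5.87%). Without a filter on low counts 0 were called, where all genes gave 0.539% higher and 0.38% lower, and in lane 4 alone 1 was higher (1.26%) and 0 lower (0.779%). The median log2 fold change (deleted minus wild-type) of the 9 was -0.12, and that of all tested genes 0.01. The groups did not overlap in 1 of the 9 genes, which was lower in all deleted libraries (23.7% of the whole table), and 0 were higher in all of them (22.4%). With deleted 6 left out, edgeR called 2 of 9 genes higher (7.89% of all tested) and 1 lower (5.07%): Cd55 and C3 rose and Cfp fell.

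**Figure D1:**
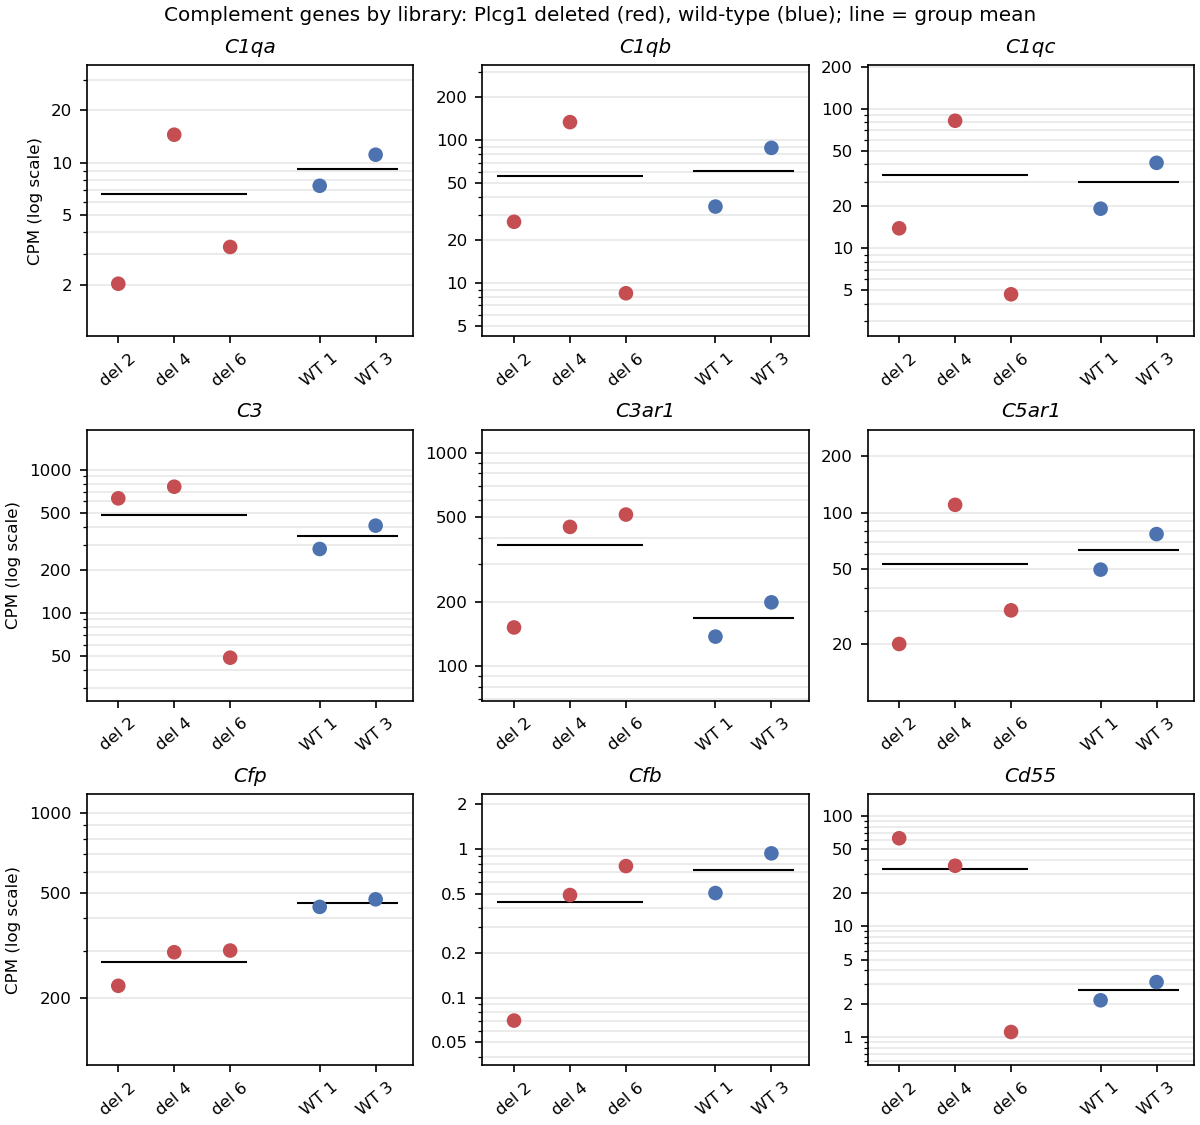
CPM of each of the 9 complement genes (log axis, own scale per gene) in deleted 2, 4 and 6 (red) and wild-type 1 and 3 (blue); each point is a library and each line a group mean. Only in Cfp do the deleted libraries (222 to 302 CPM) all lie on one side of the wild-type libraries (443 and 473 CPM).

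Properdin had the most transcript per length of the 9 genes in each of the 5 libraries. Averaged over the 5 libraries, Cfp stood at 200.2 CPM per kilobase of merged exon, followed by C3 at 82.6, C3ar1 at 67.3, C1qb at 53.8, C5ar1 at 22.3, C1qc at 16.7, C1qa at 7.38, Cd55 at 4.30 and Cfb at 0.196. On this per-length scale the libraries' ranges of every pair of neighbours in that order overlapped. The place of Cfb in it cannot be read as its level, because Gm20547 shares 2246 of its 2825 bp of exon, as described below. Cfp ranked above 98.8% to 99.6% of the genes with a count in each library. Its level also varied least, by 2.13-fold between the highest and lowest of the 5 libraries, while Cd55 varied by 56.6-fold.

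The C1q chains differed more between libraries of the same label than between the labels. C1qa (A chain; ENSMUSG00000036887.5) was at 2.03, 14.5 and 3.30 CPM in deleted 2, 4 and 6, against 7.40 and 11.2 CPM in wild-type 1 and 3. C1qb (B chain; ENSMUSG00000036905.8) was at 26.9, 134 and 8.53 CPM in deleted 2, 4 and 6, against 34.4 and 88.6 CPM in wild-type 1 and 3. C1qc (C chain; ENSMUSG00000036896.5) was at 13.9, 82.1 and 4.68 CPM in deleted 2, 4 and 6, against 19.2 and 41.0 CPM in wild-type 1 and 3. All 3 chains were highest in deleted 4, next in wild-type 3 and then in wild-type 1, so the wild-type values lay within the range of the deleted ones. The least differed by chain: C1qa was lowest in deleted 2, and C1qb and C1qc in deleted 6.

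No chain passed the test, and the sign of the C1qb and C1qc differences turned with the library left out. C1qb averaged 56.6 ± 67.9 CPM (SD, n = 3) in deleted and 61.5 ± 38.3 CPM (SD, n = 2) in wild-type libraries, a log2 fold change of -0.12 ± 1.16 (SE; edgeR adjusted p = 0.961). C1qc had a log2 fold change of 0.16 ± 1.20 (edgeR adjusted p = 0.950) and C1qa one of -0.49 ± 0.89 (0.785). Without deleted 4, whose summed C1q level was 231 CPM, the log2 fold changes of C1qa, C1qb and C1qc were -1.79, -1.78 and -1.68 (edgeR adjusted p = 0.386, 0.486 and 0.482). Without deleted 6 they were -0.16, 0.40 and 0.68 (adjusted p = 0.927, 0.780 and 0.619). Summed, the 3 chains were at 42.9, 231 and 16.5 CPM in deleted 2, 4 and 6, against 61.1 and 141 CPM in wild-type 1 and 3.

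The chain genes lie side by side on chromosome 4 (GRCm38, minus strand): C1qb at 136880129 to 136886187, C1qc at 136889804 to 136893065 and C1qa at 136895917 to 136898803. Gaps of 3616 and 2851 bp separate them, and no annotated gene overlaps their exons. C1qb and C1qc kept a near-constant proportion per kilobase: C1qc stood at 0.291, 0.345 and 0.309 of C1qb in deleted 2, 4 and 6, against 0.315 and 0.261 in wild-type 1 and 3. C1qa did not keep to that proportion, with C1qb at 12.7, 8.84 and 2.47 times C1qa per kilobase in deleted 2, 4 and 6, against 4.45 and 7.60 in wild-type 1 and 3. The windows printed above are those of the pair with the steady proportion. In deleted 2 and deleted 6 the C1qa values rest on 116 and 146 counts.

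**Figure D2:**
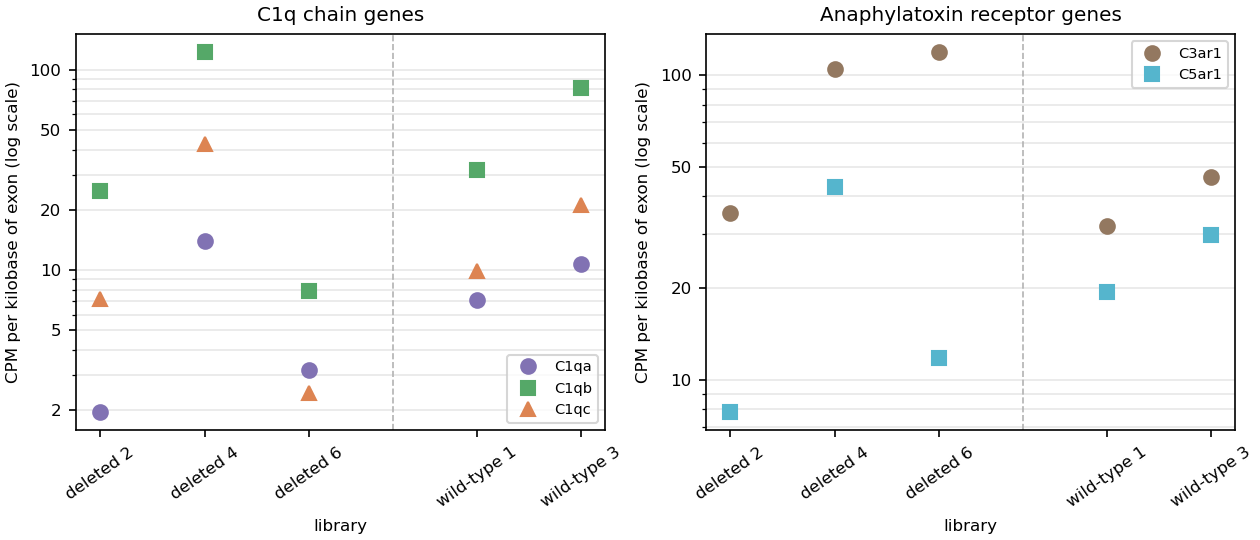
CPM per kilobase of merged exon (log axis) of the C1q chain genes (left panel) and the anaphylatoxin receptor genes (right panel) in each library, deleted libraries left of the dashed line and wild-type libraries right of it. C1qb and C1qc shift together from library to library, and C3ar1 and C5ar1 lie farthest apart in deleted 6 (119 and 11.8).

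C1q did not go with the level of macrophage markers as a whole. Of the 15 macrophage markers 1, Timd4, had no count in any library. Their summed level was 1506, 2978 and 4995 CPM in deleted 2, 4 and 6, against 1374 and 1588 CPM in wild-type 1 and 3, so deleted 6 held the highest sum of markers and the lowest sum of C1q. Of single markers, Adgre1, which encodes F4/80, was at 362, 628 and 731 CPM in deleted 2, 4 and 6, against 195 and 244 CPM in wild-type 1 and 3. Cx3cr1, the fractalkine receptor of resident macrophages and monocytes, was at 1.40, 9.70 and 0.317 CPM in deleted 2, 4 and 6, against 10.1 and 22.9 CPM in wild-type 1 and 3. In bulk RNA, fewer cells of a type and less RNA per cell cannot be told apart, and the part of these cells in the C1q values was not tested.

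C3, the protein at which all routes meet, was high in deleted 2 and 4 and low in deleted 6. C3 (ENSMUSG00000024164.14; chromosome 17, 57203970 to 57228136, minus strand) was at 631, 760 and 48.6 CPM in deleted 2, 4 and 6, against 279 and 407 CPM in wild-type 1 and 3. Deleted 2 and 4 thus lay above both wild-type libraries and deleted 6 below both. The means were 480 ± 379 CPM (SD, n = 3) in deleted and 343 ± 90.0 CPM (SD, n = 2) in wild-type libraries, a log2 fold change of 0.48 ± 1.06 (SE; edgeR adjusted p = 0.818). Without deleted 6, C3 rose by 1.03 ± 0.22 on the log2 scale (edgeR adjusted p = 0.0277), and within lane 4 the difference was 0.79 ± 0.22 (adjusted p = 0.165). The lane 4 test takes the lone wild-type library to vary like the deleted ones.

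Liver-type transcripts did not accompany C3. The 6 hepatocyte markers, Alb among them, summed to 0.0175, 0.0378 and 0.0452 CPM in deleted 2, 4 and 6, against 0.0723 and 0 CPM in wild-type 1 and 3, and none had more than 3 counts in a library. The promyelocyte and neutrophil markers, all 14 with counts in every library, summed to 15473, 17774 and 1410 CPM in deleted 2, 4 and 6, against 19403 and 21257 CPM in wild-type 1 and 3. Singly, 12 of the 14 were lowest in deleted 6, as C3 was. Mmp8, a neutrophil collagenase, was highest there, at 1278 of the summed 1410 CPM, and Mmp9 lay between deleted 2 and 4. C3 was also higher in deleted 2 and 4 than in each other library, which held for only 1 of the 14. Of the 8 monocyte markers, 4 were lowest in deleted 6 and 3 highest. Among 9 erythroid and megakaryocyte markers, 6 were lowest in deleted 6. The part of any of these cells in the C3 values was not tested.

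Properdin was the gene of the 9 whose labels separated in every library. Cfp (ENSMUSG00000001128.7; chromosome X, 20925454 to 20931555, minus strand) was at 222, 298 and 302 CPM in deleted 2, 4 and 6, against 443 and 473 CPM in wild-type 1 and 3. All deleted values were under both wild-type ones. The means were 274 ± 45.0 CPM (SD, n = 3) in deleted and 458 ± 21.4 CPM (SD, n = 2) in wild-type libraries. The log2 fold change was -0.74 ± 0.23 (SE), with an unadjusted p of 0.0207 and an adjusted p of 0.277 in edgeR's test. Cfp fell by 0.80 on the log2 scale without deleted 6 (SE 0.18, edgeR adjusted p = 0.0328) and by 0.70 in limma-voom (adjusted p = 0.0328), while DESeq2 gave -0.74 (adjusted p = 0.125). Over the 11 alternative settings and tools its log2 fold change lay between -0.85 and -0.61, with 2 calls. Cfp is X-linked, and Xist, the transcript of X inactivation, had 3, 0 and 5375 counts in deleted 2, 4 and 6, against 0 and 0 in wild-type 1 and 3. The part of X inactivation or sex in the Cfp values was not tested.

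Factor B was barely counted. Cfb (ENSMUSG00000090231.9; chromosome 17, 34856374 to 34862518, minus strand) had 4, 26 and 34 counts in deleted 2, 4 and 6, against 21 and 52 in wild-type 1 and 3. edgeR gave a log2 fold change of -0.71 ± 0.95 (SE; adjusted p = 0.703). Without deleted 6 it was -1.36 ± 0.85 (edgeR adjusted p = 0.357). These counts cannot be read as its level: Gm20547, an annotated gene on the same strand with 0 counts in all 5 libraries, shares 2246 of the 2825 bp of Cfb exon, and 1656 of the 3872 bp of exon of the neighbouring C2. Reads that fit more than 1 gene went into a row of their own in the files, 2.36% to 2.78% of all reads, and are in neither count.

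Of the receptors, C3ar1 was highest in deleted 6 and deleted 4, while C5ar1 followed C1qa. C3ar1 (ENSMUSG00000040552.8; chromosome 6, 122847138 to 122856161), the receptor for C3a, was at 152, 449 and 513 CPM in deleted 2, 4 and 6, against 137 and 199 CPM in wild-type 1 and 3. Deleted 4 and 6 lay above both wild-type libraries, and deleted 2 lay between them. The means were 371 ± 193 CPM (SD, n = 3) in deleted and 168 ± 43.5 CPM (SD, n = 2) in wild-type libraries, a log2 fold change of 1.14 ± 0.58 (SE; edgeR adjusted p = 0.401). It was positive in all 11 alternatives, from 0.61 to 1.52, with 0 calls. The libraries ranked the same way for C3ar1 as for the summed macrophage markers given above, and the part of such cells in it was not tested.

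C5ar1 (ENSMUSG00000049130.5; chromosome 7, 16246743 to 16259540), the receptor for C5a, was at 20.1, 110 and 30.3 CPM in deleted 2, 4 and 6, against 49.9 and 76.9 CPM in wild-type 1 and 3. Both wild-type libraries lay within the range of the deleted ones. edgeR gave a log2 fold change of -0.25 ± 0.77 (SE; adjusted p = 0.876). It was -1.33 ± 0.37 when deleted 4 was left out (edgeR adjusted p = 0.389). The proportion between the receptors was higher in each deleted library than in either wild-type library. Per kilobase, C3ar1 was at 4.50, 2.44 and 10.1 times C5ar1 in deleted 2, 4 and 6. It was at 1.64 and 1.54 times C5ar1 in wild-type 1 and 3. Of all tested genes, 22.4% were likewise higher in all deleted libraries, and no such share was computed for ratios. The ratio was chosen after its values were seen and was not tested.

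**Figure D3:**
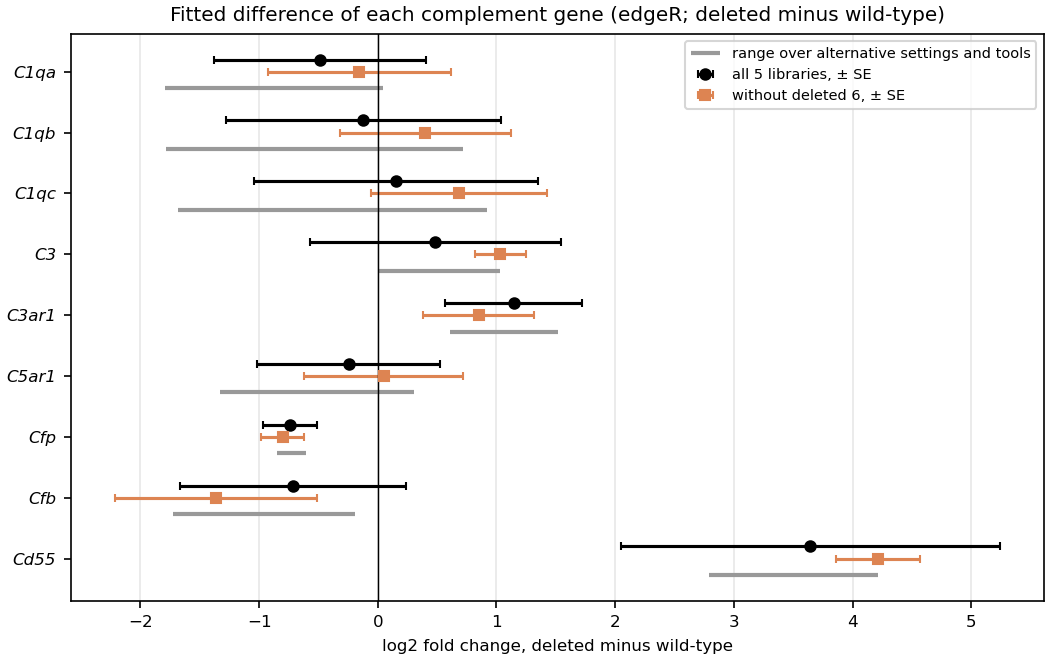
Log2 fold change (deleted minus wild-type) of each complement gene with all 5 libraries (black, ± SE) and without deleted 6 (orange, ± SE), with the range over all alternative settings and tools in grey. The ranges of Cfp, Cfb, C3ar1 and Cd55 stay on one side of 0, and those of C1qa, C1qb, C1qc, C3 and C5ar1 cross it.

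Cd55, the membrane inhibitor of the convertases, had the widest differences. Cd55 (ENSMUSG00000026399.11; chromosome 1, 130439027 to 130462744) was at 62.7, 35.4 and 1.11 CPM in deleted 2, 4 and 6, against 2.15 and 3.13 CPM in wild-type 1 and 3. Deleted 2 and 4 lay above both wild-type libraries and deleted 6 below both, with 3578, 1873 and 49 counts in deleted 2, 4 and 6, against 89 and 174 in wild-type 1 and 3. The means were 33.0 ± 30.9 CPM (SD, n = 3) in deleted and 2.64 ± 0.699 CPM (SD, n = 2) in wild-type libraries, a log2 fold change of 3.64 ± 1.60 (SE; edgeR adjusted p = 0.360). DESeq2 called it at 3.64 (adjusted p = 0.0486) and limma-voom at 3.79 (0.0490). Without deleted 6, Cd55 rose by 4.22 ± 0.35 on the log2 scale (edgeR adjusted p = 0.00146), and in lane 4 alone by 3.98 ± 0.48 (0.0429).

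The summed level of the mast cell markers, Kit among them, ranked the libraries as Cd55 did. All 9 had counts in every library and summed to 11030, 5002 and 35.4 CPM in deleted 2, 4 and 6, against 67.3 and 114 CPM in wild-type 1 and 3. Singly, all 9 were higher in deleted 2 and 4 than in each of the other libraries. The same held for 6 of the 9 erythroid and megakaryocyte markers. Only 3 of the 9 mast cell markers were lowest in deleted 6, as Cd55 was. The part of any of these cells in the Cd55 values was not tested. Cd55b, the mouse paralog of Cd55, had 1, 0 and 0 counts in deleted 2, 4 and 6, against 0 and 1 in wild-type 1 and 3. Gm16083, an antisense gene, shares 102 of the 4853 bp of Cd55 exon and had at most 13 counts in a library, and the kit did not mark strand.

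Likeness was measured as the root mean square difference between centred log2 CPM values over the 5 libraries, against the 9073 other genes whose log2 CPM averaged 3 or more. The closest gene to C1qa was C5ar1, at 0.21, then Oas3 at 0.51, an interferon-induced oligoadenylate synthetase, and Ebi3 at 0.59, a subunit of interleukins 27 and 35. C1qb and C1qc, its partners in the protein, lay farther from C1qa, at 0.82 and 0.81, but only 0.13 from each other. Closest to C3 were Hsd11b1 (0.28), which regenerates active glucocorticoid, Gm5483 (0.33) and Rgs18 (0.35), a regulator of G protein signalling. Closest to Cfp were Wls (0.077), needed for WNT secretion, Ero1lb (0.090), an oxidase of the endoplasmic reticulum, and Tkfc (0.095), a kinase of triose metabolism.

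Of 50 other complement genes, 8 had no count in any library (Mbl1, Mbl2, Colec10, C8a, C8b, Serping1, C4bp and Cfi), and 14, these included, had at most 3 counts in each. A count of 0 allows up to 0.0526 to 0.0723 CPM in a library (3 counts). Enough counts for the test were found in 28 genes. edgeR called none of them with all 5 libraries. By unadjusted p under 0.05, 2 stood higher (9.44% of the whole table) and 1 lower (5.42%), with a median log2 fold change of 0.48 against 0.01 over all tested genes. DESeq2, which fitted 42 of the 50, called 2 higher and 1 lower. Its shares over all genes, 4.59% and 2.17%, are of the 18281 genes given an adjusted p. These need not include all 42. limma-voom called 2 of 28 higher (7.63%) and 2 lower (5.87%). The groups did not overlap in 9 of the 28, 4 of them higher in all deleted libraries (22.4% of the whole table) and 5 lower (23.7%). With deleted 6 left out, 2 of 25 were called higher (7.89% of the whole table) and 3 lower (5.07%).

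Among regulators, Cd59a, which blocks the membrane attack complex and, like CD55, sits on a glycolipid anchor, was at 21.9, 9.34 and 19.7 CPM in deleted 2, 4 and 6, against 1.66 and 1.60 CPM in wild-type 1 and 3. It was high in all deleted libraries, deleted 6 included. Its log2 fold change was 3.37 (edgeR unadjusted p = 0.000850, adjusted p = 0.133), and it rose by 3.27 ± 0.44 without deleted 6 (adjusted p = 0.00609). DESeq2 (adjusted p = 1.84e-08) and limma-voom (0.0237) called it too. Its paralog Cd59b was at 0.823, 0.359 and 0.452 CPM in deleted 2, 4 and 6, against 0.434 and 0.342 CPM in wild-type 1 and 3, and reads could be split between these similar genes. Cr1l, which encodes the rodent regulator Crry, was at 73.0, 76.0 and 98.9 CPM in deleted 2, 4 and 6, against 62.2 and 47.8 CPM in wild-type 1 and 3 (edgeR adjusted p = 0.338). Cd59a and Cr1l were higher in each deleted library than in either wild-type library.

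Among the other receptors, Itgax, the alpha chain of complement receptor 4, was at 120, 97.5 and 756 CPM in deleted 2, 4 and 6, against 11.5 and 8.25 CPM in wild-type 1 and 3. No deleted library overlapped the wild-type ones. Its log2 fold change was 5.03 (edgeR adjusted p = 0.219), and it rose by 3.47 ± 0.22 without deleted 6 (adjusted p = 0.000799). DESeq2 (1.65e-05) and limma-voom (0.00992) called it as well. Itgam, the alpha chain of complement receptor 3, was at 469, 712 and 1598 CPM in deleted 2, 4 and 6, against 456 and 671 CPM in wild-type 1 and 3 (edgeR adjusted p = 0.564). Lrp1, an endocytic receptor, was at 172, 278 and 1468 CPM in deleted 2, 4 and 6, against 223 and 272 CPM in wild-type 1 and 3 (edgeR adjusted p = 0.524). Both were high in deleted 6 alone.

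In the initiating steps, C1ra, a C1r protease that partners C1q, was at 1.52, 3.08 and 7.85 CPM in deleted 2, 4 and 6, against 1.25 and 1.41 CPM in wild-type 1 and 3 (edgeR adjusted p = 0.386). C4b, component C4, was at 1.03, 3.83 and 11.4 CPM in deleted 2, 4 and 6, against 0.771 and 1.87 CPM in wild-type 1 and 3 (0.430). Its near-identical copy C4a makes the C4b counts uncertain. C2 had 4, 6 and 3 counts in deleted 2, 4 and 6, against 11 and 10 in wild-type 1 and 3 (0.342), subject to the overlap with Gm20547. None of these 3 passed with or without deleted 6.

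Of 8 other alternative and terminal genes only Cfd and C8g had enough counts for the test. Cfd, the protease that cleaves factor B, had 6, 3 and 0 counts in deleted 2, 4 and 6, against 32 and 40 in wild-type 1 and 3. With all 5 libraries its log2 fold change was -3.67 (edgeR adjusted p = 0.230). Without deleted 6 it fell by 3.15 on the log2 scale (edgeR adjusted p = 0.0202). DESeq2 (adjusted p = 0.00636) and limma-voom (0.0116) called Cfd lower with all 5 libraries. These are fitted values at very low counts. C8g, a chain of C8 in the terminal complex, was at 3.45, 3.19 and 3.12 CPM in deleted 2, 4 and 6, against 4.53 and 4.41 CPM in wild-type 1 and 3 (edgeR adjusted p = 0.487).

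The 2 remaining calls without deleted 6, named after their values were seen, were lectins. Colec12, a scavenger collectin, was at 3.21, 4.79 and 26.9 CPM in deleted 2, 4 and 6, against 30.0 and 46.2 CPM in wild-type 1 and 3. Its log2 fold change was -1.71 with all 5 libraries (edgeR adjusted p = 0.440). Without deleted 6, Colec12 fell by 3.24 (edgeR adjusted p = 0.00205). Fcnb, a ficolin of myeloid cells, was at 12.98, 21.6 and 0.0678 CPM in deleted 2, 4 and 6, against 50.7 and 75.4 CPM in wild-type 1 and 3. Its log2 fold change was -2.45 with all 5 libraries (edgeR adjusted p = 0.489). Without deleted 6, Fcnb fell by 1.85 (edgeR adjusted p = 0.0116). With all 5 libraries limma-voom called Colec12 (adjusted p = 0.00763) but not Fcnb, and DESeq2 called neither. In both genes the deleted values were all under the wild-type ones.

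**Figure D4:**
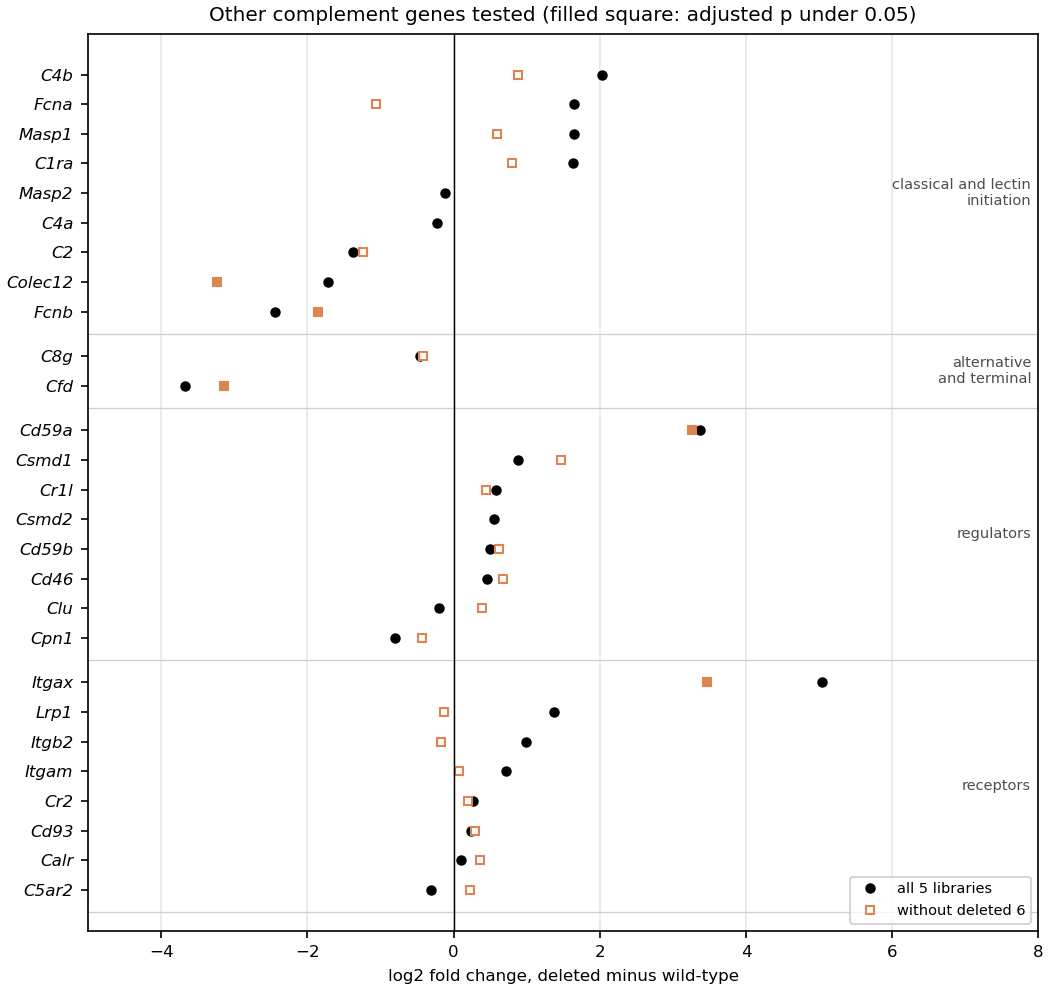
Log2 fold change (deleted minus wild-type) of 27 of the 28 other complement genes tested, by role, with all 5 libraries (black circles) and without deleted 6 (orange squares, filled where the adjusted p was under 0.05). Itgax and Cd59a lie far right in both fits, and Colec12, Fcnb and Cfd far left.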

How the data were processed

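RNA of 5 samples went through the SMART-Seq v4 and Nextera XT kits, per the labels' protocols; neither kit marks strand. The submitters' processing notes name STAR, bcl2fastq 1.8.4, DESeq2 1.12.4 and mm10, while annotation and counting options were not given in the sources used here. For each library the authors deposited whole-number counts for 46603 genes. Their series tables hold a normalized signal, which is the counts over a size factor for each library, and log2 values of unnamed transformation, deposited by the authors and not used. Rows that name no gene were left out: reads without a feature were 5.89% to 8.09% of a library, ambiguous reads 2.36% to 2.78%, unaligned 2.48% to 4.13% and multiply aligned 13.0% to 15.1%.

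Groups came from the genotype label. Counts were filtered with filterByExpr (16120 genes, all 9 complement genes among them), scaled by TMM and tested with edgeR 4.0.16 (glmQLFit, glmQLFTest; R 4.3.3), with Benjamini-Hochberg adjustment over all tested genes and a threshold of 0.05. SEs were the log2 fold change divided by the root of F. An exact two-sided permutation test of 3 against 2 cannot go below 0.1, so none was run. Alternatives were DESeq2 1.42.0, limma 3.58.1 (voom with sample quality weights), RLE factors, 2 filters, each library left out and lane 4 alone. Floors cover counting error only, while SDs and SEs also take in the spread between libraries. No pair of libraries was alike within sampling noise (smallest chi-square per gene 44.7). Coordinates and exon lengths are from GENCODE M21 (GRCm38, the build of mm10), promoters from RefSeq.

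The members, gene lists and tests were chosen with earlier results of these data known. Named were all 9 genes, the 3 with the smallest p in each wider list, and the 3 nearest genes in pattern to C1qa, C3 and Cfp; further genes are marked as chosen later or stand beside a result as markers. A gene that this rule names is not reported here.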

Additional observations from a re-analysis of the deposited data

How the results depend on the processing

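Where all 5 libraries gave 0 calls in edgeR, other tools did not. Genes called higher and lower were 840 and 397 in DESeq2, 1230 and 947 in limma-voom, 163 and 115 with no filter on low counts, 211 and 131 in lane 4 alone, and 0 to 1245 and 0 to 800 with single libraries left out, the upper ends coming without deleted 6. Of the 9 complement genes, 1 was called higher in DESeq2, limma-voom and lane 4, 1 lower in limma-voom, and 0 to 2 higher and 0 to 1 lower with single libraries left out. Of the wider complement genes, 2 higher and 1 lower were called in DESeq2, 2 and 2 in limma-voom, 2 higher with no filter, 1 and 1 in lane 4, and 0 to 2 and 0 to 3 with single libraries left out. RLE factors and the stricter filter (10 CPM in 2 libraries) gave no call, and Cfb did not pass that filter. Of 98 alternative values for the 9 genes, 79 kept direction and side of the threshold, 7 gained a call and 12 changed sign without a call. In limma-voom C1qa, C1qb and C5ar1 turned positive (0.043, 0.72 and 0.30). With single libraries left out the log2 fold change ran from -1.78 to 0.72 for C1qb, -1.68 to 0.81 for C1qc, -0.00063 to 1.03 for C3 and -1.33 to 0.15 for C5ar1; the cause was not tested. No paired analysis was possible because the labels share no replicate number between the groups. With wild-type 1 or 3 left out, the lone wild-type library is assumed to vary like the deleted ones.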
